A study of Arabidopsis thaliana with 12 samples.

Results

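A set of 30 probe sets for 28 genes held its mean level over the first 2 long days in Arabidopsis thaliana shoot apices and was lower by day 4. They were found among 8297 probe sets, of which 3794 stood for 1 named gene. A probe set was taken when its mean over the 12 arrays lay above 3.56 (log2), its day 2 mean over the 4 genotypes lay within 0.15 of its day 0 mean, its day 4 mean lay at least 0.3 below its day 2 mean, and day 4 lay below day 2 in each genotype. Genes at loci AT4G00005 to AT4G02999, near FRIGIDA, and genes of several large families, such as CYP, UGT, MYB and WRKY, were left out together with a few single genes. This removed 3 that met the limits, BGLU47, OSM34 and RCA. All values are deposited log2 signals, so a difference of 1 is a change by a factor of 2. The members were selected on their day differences, so those differences are described without a test; only differences between genotypes, which the choice did not use, are tested.

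Plants were kept for 30 days at 21 °C under a short-day cycle (9 h light, 15 h dark) and then moved to a long-day cycle (16 h light, 8 h dark). RNA came from shoot apices taken on days 0, 2 and 4 after the move, with 1 array for each genotype and day. The genotypes, all in the Col-0 background, were FRI(Sf-2)-FLC(Col), with an active FRIGIDA (FRI) allele introgressed from San Feliu-2 and the Col-0 allele of FLOWERING LOCUS C (FLC); FRI(Sf-2)-flc-3, with the same FRI allele and a deletion in FLC; fri(Col)-flc-3, with the Col-0 FRI allele and the deletion; and fri(Col)-FLC(Col), the Col-0 wild type. The introgressed segment can carry other Sf-2 genes beside FRI. There was no replicate of any genotype on any day, and samples kept in short days beyond day 0 are not among those analysed here, so long days, plant age and the occasion of harvest cannot be told apart. The labels give neither the hour of harvest nor the number of plants in a sample.

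In short days the shoot apical meristem of Arabidopsis makes leaves; long days lead leaves to send a signal to the apex that turns it to making flowers. FLC is a MADS-domain protein that holds this switch back and FRI increases its expression, so plants with an active FRI and an intact FLC flower late, and loss of either removes the block. A dissected apex holds the meristem together with young leaves, whose defence, transport and photosynthesis genes are measured along with those of the meristem.

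Neither FRI nor FLC had a named probe set, so the genotypes were not checked on these genes. None of the 17 shoot meristem and boundary genes looked for had a named probe set, so the tissue label was not checked on its defining markers. Of 31 leaf mesophyll and photosynthesis genes, 5 had a named probe set, and of 11 stamen and pollen genes 2 had one, both below the level needed for testing. The array of FRI(Sf-2)-flc-3 on day 2 stood apart from the other 11: its bacterial BioB control probe sets averaged 7.41, against 5.69 to 6.18, and the spread of its residuals was 0.165, against 0.0969 to 0.132. Over the other 3 genotypes alone, 28 of the 30 members still had a fall of at least 0.3 and 25 a day 2 mean within 0.15 of day 0, with a median fall of -0.48. The 2 that lost the fall were PSAE-1 (18089_r_at) and LHB1B2, and 22 of the 30 still met all the limits. The medians of the 12 arrays differed by at most 0.0604.

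Across the 30 members the median level of an array was 5.35 to 5.69 on day 0, 5.36 to 5.55 on day 2 and 4.74 to 5.02 on day 4. The median day 4 minus day 2 difference, termed the fall, was -0.44, while the median over the 6185 probe sets tested was 0.03. Differences ran from -1.14 to -0.31. They were at least 0.8 in size for 6 members, between 0.5 and 0.8 for 6 and under 0.5 for 18. Because RNA was from whole apices, fewer cells that express a gene and less RNA per cell cannot be told apart.

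In 21 of the 30 members all 4 day 4 arrays lay below all 4 day 2 arrays, which held for 3.64% of the probe sets tested, and in 26 they lay below all 4 day 0 arrays, which held for 11.4%. The 9 members with overlap between days 2 and 4 were UBC29, AT2G34700, AT2G39980, AT1G59740, AT2G32150, AT4G33550, AT4G18340, AT1G30790 and AT4G38540. These counts follow from the choice of members and nothing is read from them.

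The largest difference belonged to AT2G38390, a locus for which the annotation used here gives no name. On days 0, 2 and 4 it measured 5.99, 5.83 and 4.43 in FRI(Sf-2)-FLC(Col), 5.40, 5.37 and 4.36 in FRI(Sf-2)-flc-3, 5.74, 5.17 and 4.61 in fri(Col)-flc-3 and 5.53, 5.81 and 4.20 in fri(Col)-FLC(Col). All 4 day 4 arrays were below every earlier array. The mean day 4 minus day 2 difference was -1.14 ± 0.145 (SE of the additive fit), with -1.61 in fri(Col)-FLC(Col) as the largest and -0.56 in fri(Col)-flc-3 as the smallest. In fri(Col)-flc-3 part of the difference was already there on day 2, at -0.57 from day 0.

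STZ, also called ZAT10, encodes a C2H2 zinc finger protein that represses transcription and is known to be induced by salt, cold and other stresses. It was the only member gene with 2 probe sets among the 6 largest falls. The first, 18216_at, measured 4.81, 3.72 and 3.22 on days 0, 2 and 4 in FRI(Sf-2)-FLC(Col), 4.20, 4.17 and 3.19 in FRI(Sf-2)-flc-3, 3.50, 5.41 and 3.33 in fri(Col)-flc-3 and 4.53, 3.70 and 3.24 in fri(Col)-FLC(Col). The level was therefore not flat in each genotype: the day 2 minus day 0 difference was -1.09 in FRI(Sf-2)-FLC(Col), -0.04 in FRI(Sf-2)-flc-3, 1.91 in fri(Col)-flc-3 and -0.83 in fri(Col)-FLC(Col), and these nearly cancel in the mean of -0.01. The second probe set, 18217_g_at, measured 6.39, 5.24 and 5.04 in FRI(Sf-2)-FLC(Col), 6.14, 5.97 and 5.11 in FRI(Sf-2)-flc-3, 5.38, 7.04 and 5.16 in fri(Col)-flc-3 and 6.35, 5.63 and 5.18 in fri(Col)-FLC(Col). Both probe sets gave the same picture, with the day 2 array of fri(Col)-flc-3 the highest of all 12, day 0 of that genotype the lowest of the day 0 arrays, and all 4 genotypes close together on day 4, between 3.19 and 3.33 on the first probe set and between 5.04 and 5.18 on the second. The mean fall after day 2 was -1.004 ± 0.349 and -0.85 ± 0.319, the largest standard errors of any member. Without the fri(Col)-flc-3 arrays neither probe set met the limits, because the day 2 means then lay below those of day 0. Neither met them without the FRI(Sf-2)-FLC(Col) arrays, where the day 2 means lay above those of day 0. The same held for 18216_at without the fri(Col)-FLC(Col) arrays, so membership rests on opposite changes that cancel.

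AT1G61610, AT2G19970 and AT4G38080 followed in size, and the annotation gives none of them a name. AT1G61610 measured 5.61, 5.44 and 4.91 on days 0, 2 and 4 in FRI(Sf-2)-FLC(Col), 5.55, 5.36 and 4.59 in FRI(Sf-2)-flc-3, 5.46, 5.84 and 4.62 in fri(Col)-flc-3 and 5.37, 5.75 and 4.54 in fri(Col)-FLC(Col). In both genotypes with the Col-0 FRI allele day 2 was the highest day, 0.38 above day 0. In both with the Sf-2 allele it was lower than day 0 by 0.17 to 0.19. This difference was seen in the data and not tested. The gene's other probe set, 16405_at, which is dimmer and no member, did not show the same split. There day 2 was above day 0 in FRI(Sf-2)-FLC(Col) too, at 3.84 against 3.76, and below it only in FRI(Sf-2)-flc-3, at 3.15 against 3.39. AT2G19970 measured 6.05, 6.16 and 5.28 in FRI(Sf-2)-FLC(Col), 6.14, 6.38 and 5.60 in FRI(Sf-2)-flc-3, 6.14, 6.0 and 5.02 in fri(Col)-flc-3 and 6.18, 5.94 and 5.16 in fri(Col)-FLC(Col). AT4G38080 measured 7.19, 6.83 and 5.96 in FRI(Sf-2)-FLC(Col), 6.52, 6.69 and 5.83 in FRI(Sf-2)-flc-3, 6.75, 6.61 and 5.86 in fri(Col)-flc-3 and 6.66, 7.06 and 6.14 in fri(Col)-FLC(Col). These last 2 genes had nearly even falls, with day 4 minus day 2 between -0.98 and -0.78 in the 4 genotypes for AT2G19970 and between -0.91 and -0.75 for AT4G38080, and no day 4 array reached any earlier one.

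**Figure D1:**
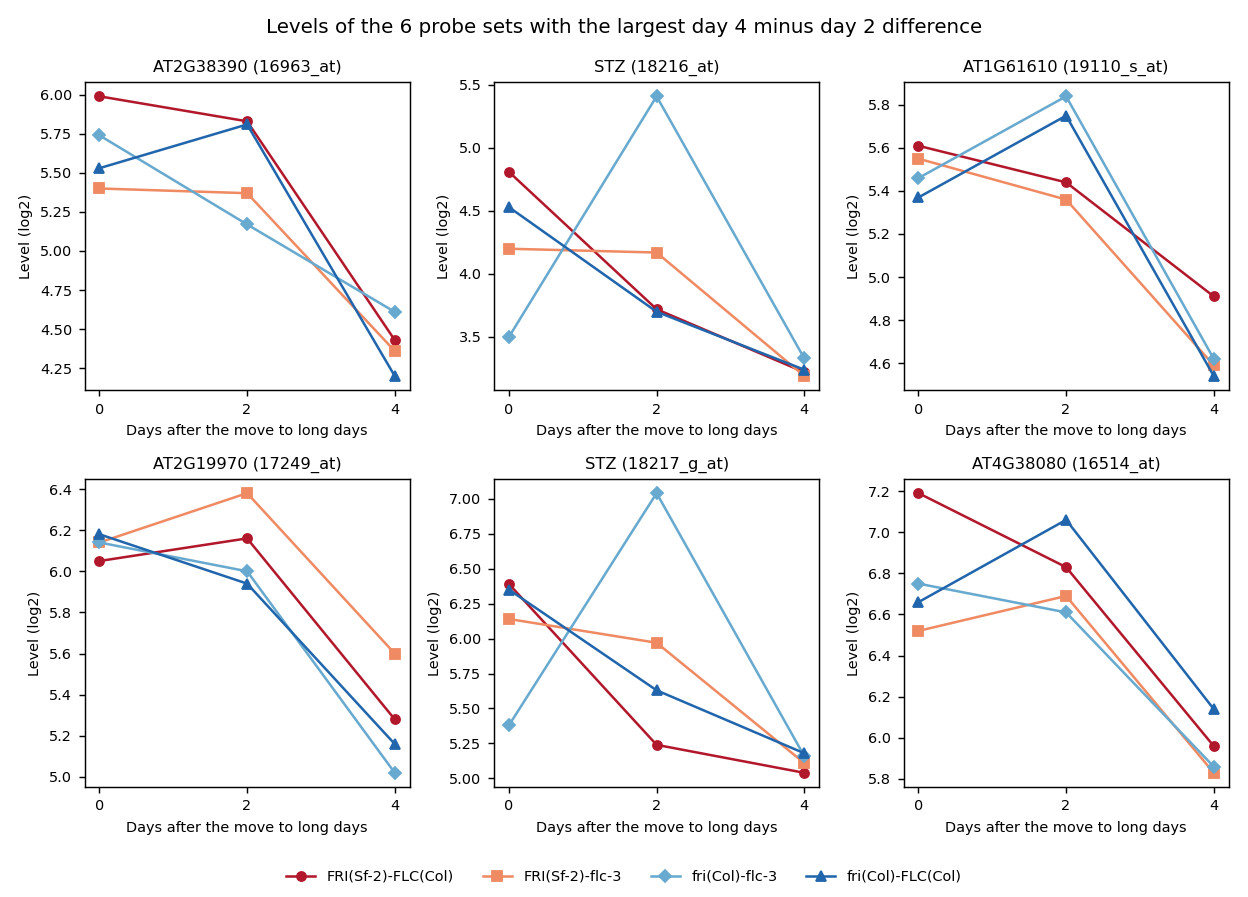
Level (log2) on the vertical axis against days after the move to long days for the 6 probe sets with the largest falls; each line is a genotype and each point 1 array. Day 4 is the lowest day in all 4 genotypes in every panel, and in both STZ panels the day 2 array of fri(Col)-flc-3 stands above the rest at 5.41 and 7.04.

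The annotation gives a symbol other than the locus name for 6 of the 28 genes, namely STZ, UBC29, ChiC, NCRK, PSAE-1 and LHB1B2, and the RefSeq table gives AT1G59740 the name NPF4.3. The other 21 genes have only a locus name there and are described by their values.

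UBC29 encodes a ubiquitin-conjugating enzyme, which carries ubiquitin to the ligases that mark proteins for breakdown. It measured 6.38, 6.59 and 5.44 on days 0, 2 and 4 in FRI(Sf-2)-FLC(Col), 6.27, 5.96 and 5.74 in FRI(Sf-2)-flc-3, 5.88, 5.67 and 5.40 in fri(Col)-flc-3 and 5.95, 6.15 and 5.23 in fri(Col)-FLC(Col). Both genotypes with an intact FLC had a day 2 level above day 0 and falls of -1.15 in FRI(Sf-2)-FLC(Col) and -0.92 in fri(Col)-FLC(Col), whereas in both with the deletion day 2 was already lower and the falls were -0.21 in FRI(Sf-2)-flc-3 and -0.27 in fri(Col)-flc-3. The day 2 and day 4 arrays overlapped because the level of 5.67 in fri(Col)-flc-3 on day 2 was below the 5.74 of FRI(Sf-2)-flc-3 on day 4. That contrast between FLC alleles was noticed among these values and was not tested. In FRI(Sf-2)-flc-3 it rests on the day 2 array that stood apart in its controls. Of the 5 other tested probe sets in the protein turnover list, which include UBC35 and UBC16, 0 passed the limma threshold for day 4 against day 2 in either direction, and their differences lay between -0.12 and 0.20, with 0 at an unadjusted p under 0.05. Over all probe sets 4.35% passed that threshold and 20.1% had such an unadjusted p.

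AT1G59740 (NPF4.3) belongs to the NRT1/PTR transporter family, whose members move nitrate, peptides and hormones across membranes. It measured 8.11, 8.21 and 7.53 on days 0, 2 and 4 in FRI(Sf-2)-FLC(Col), 7.89, 7.48 and 7.44 in FRI(Sf-2)-flc-3, 7.78, 7.72 and 7.21 in fri(Col)-flc-3 and 7.81, 7.84 and 7.03 in fri(Col)-FLC(Col). In FRI(Sf-2)-flc-3 almost all of the change lay before day 2, with -0.40 from day 0 to day 2 and -0.05 after it, and this day 2 array is the one that stood apart in its controls. In the other 3 genotypes day 2 lay within 0.10 of day 0 and day 4 was lower by 0.50 to 0.81.

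NCRK encodes a receptor-like kinase and ChiC a class V chitinase, an enzyme that cleaves chitin. NCRK measured 5.12, 5.16 and 4.54 on days 0, 2 and 4 in FRI(Sf-2)-FLC(Col), 4.93, 4.66 and 4.41 in FRI(Sf-2)-flc-3, 4.80, 4.75 and 4.31 in fri(Col)-flc-3 and 4.77, 4.74 and 4.40 in fri(Col)-FLC(Col). ChiC measured 5.45, 5.28 and 4.78 in FRI(Sf-2)-FLC(Col), 5.15, 5.10 and 4.82 in FRI(Sf-2)-flc-3, 5.33, 5.38 and 5.02 in fri(Col)-flc-3 and 5.39, 5.46 and 4.82 in fri(Col)-FLC(Col). For both genes no day 4 array reached a day 2 array. Day 2 lay within 0.15 of day 0 in 3 of the 4 genotypes for each, the exceptions being FRI(Sf-2)-flc-3 at -0.27 for NCRK and FRI(Sf-2)-FLC(Col) at -0.17 for ChiC.

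**Figure D2:**
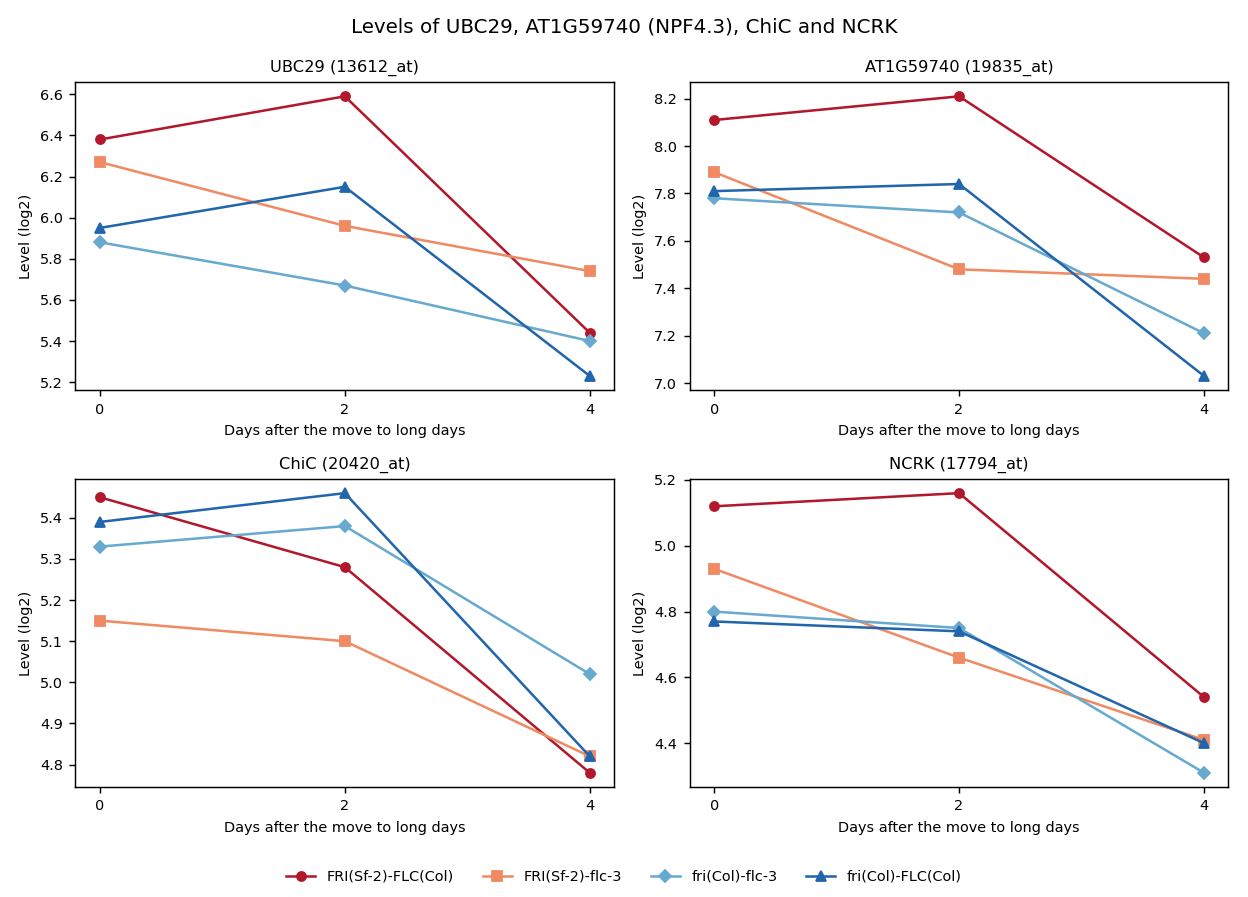
Level (log2) on the vertical axis against days after the move to long days for UBC29, AT1G59740, ChiC and NCRK; each line is a genotype and each point 1 array. FRI(Sf-2)-FLC(Col) is the highest genotype on all 3 days for AT1G59740 and NCRK.

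Photosynthesis was represented by PSAE-1, a subunit of photosystem I near its ferredoxin side, and LHB1B2, a chlorophyll a/b binding protein of the light-harvesting antenna of photosystem II. On days 0, 2 and 4 the PSAE-1 probe set 18088_i_at measured 10.62, 10.61 and 10.16 in FRI(Sf-2)-FLC(Col), 10.44, 10.96 and 10.15 in FRI(Sf-2)-flc-3, 10.64, 10.48 and 10.23 in fri(Col)-flc-3 and 10.58, 10.24 and 10.01 in fri(Col)-FLC(Col). The day 2 array of FRI(Sf-2)-flc-3, the array that stood apart in its controls, was the highest of the 12, and in fri(Col)-FLC(Col) the level was already lower on day 2. A second PSAE-1 probe set, 18089_r_at, had falls of -0.22 in FRI(Sf-2)-FLC(Col), -0.52 in FRI(Sf-2)-flc-3, -0.31 in fri(Col)-flc-3 and -0.21 in fri(Col)-FLC(Col). Another, 18090_s_at, is no member because its mean difference of -0.26 misses the limit, yet it too was lower on day 4 than on day 2 in all 4 genotypes, by 0.15 to 0.37. Without the FRI(Sf-2)-flc-3 arrays neither PSAE-1 member met the limits: 18088_i_at then had a day 2 minus day 0 difference of -0.17 and a fall of -0.31, and 18089_r_at a fall of -0.25.

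Among the members, the LHB1B2 probe set 12738_r_at was flattest before day 2. It measured 5.03, 4.95 and 4.87 in FRI(Sf-2)-FLC(Col), 5.16, 5.18 and 4.66 in FRI(Sf-2)-flc-3, 4.91, 4.91 and 4.63 in fri(Col)-flc-3 and 4.90, 4.91 and 4.39 in fri(Col)-FLC(Col). Day 2 was within 0.08 of day 0 in each genotype, and the fall was small, at -0.08, only in FRI(Sf-2)-FLC(Col). Without the FRI(Sf-2)-flc-3 arrays its fall of -0.295 just missed the limit, so all 3 photosynthesis probe sets were members only with that genotype included. A second LHB1B2 probe set, 12739_s_at, is no member: its mean day 4 minus day 2 difference was -0.16, and it was higher on day 4 than on day 2 in FRI(Sf-2)-FLC(Col), by 0.06. It was far brighter, with a mean over the 12 arrays of 11.71 against 4.87 for 12738_r_at. In FRI(Sf-2)-FLC(Col) it was not flat before day 2, at 11.90 on day 0 and 11.67 on day 2. Genes of this antenna family are close copies of each other and the suffixes _s_at and _r_at mark probe sets that can detect similar transcripts or that were picked under relaxed rules, so which copy each one measured is uncertain.

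Other photosynthesis probe sets had smaller day 4 minus day 2 differences in the same direction. Most of them were first higher on day 2 than on day 0. The rises to day 2 were 0.32 for PSAN, 0.15 for PSBY, 0.155 for PSB27 and 0.15 for PSAE-1 (18090_s_at). SBPASE rose by 0.49 and PRK by 0.21, and only the PSBW probe sets, each at -0.01, were level. Of the 6 tested probe sets in the light reaction list that are no members, for PSBW, PSAN, PSBY, PSAE-1 and PSB27, 0 passed the limma threshold for day 4 against day 2 in either direction, and their differences lay between -0.26 and -0.13 with a median of -0.17. At an unadjusted p under 0.05 there were 3 of the 6, and 20.1% of all probe sets. The 6 probe sets of the mesophyll and photosynthesis marker list, for PSBW, PSAN, PSBY, PRK and SBPASE, were also summed on the linear scale. The sum was 6370.5 to 6812.8 on day 0, 6375 to 7382 on day 2 and 5748 to 6539 on day 4. Of these 6 probe sets, 0 passed the day 4 against day 2 threshold. The part of leaf tissue in the falls of PSAE-1 and LHB1B2 was not tested.

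**Figure D3:**
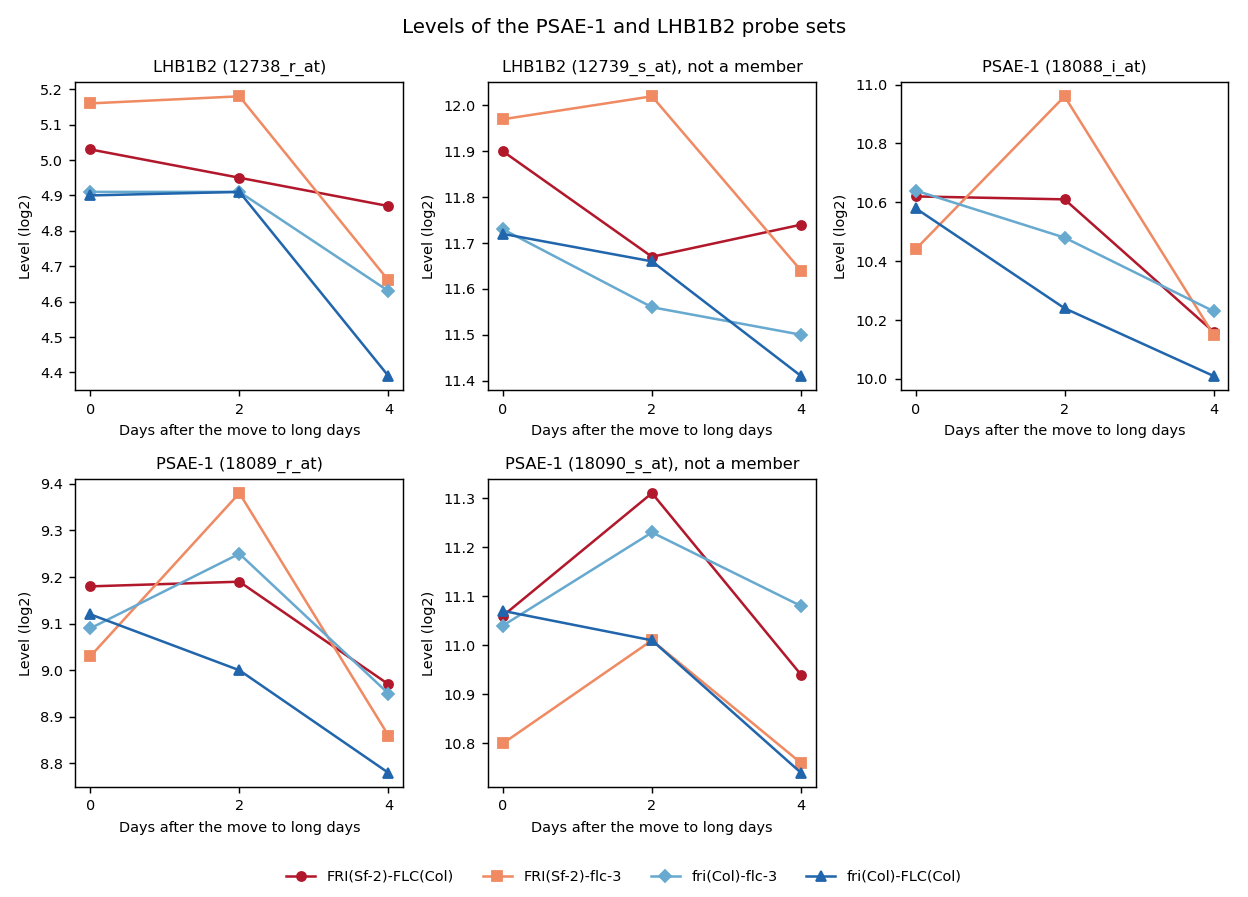
Level (log2) on the vertical axis against days after the move to long days for the 3 PSAE-1 and 2 LHB1B2 probe sets; each line is a genotype and each point 1 array, and the vertical scale differs between panels. The day 2 array of FRI(Sf-2)-flc-3, which stood apart in its controls, is highest for both members of PSAE-1, at 10.96 and 9.38, and without this genotype none of the 3 members shown meets the limits.

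Among the locus-only genes, AT5G45350 and AT4G19200 were measured at high levels. AT5G45350 measured 10.25, 10.41 and 9.53 on days 0, 2 and 4 in FRI(Sf-2)-FLC(Col), 9.99, 10.02 and 9.33 in FRI(Sf-2)-flc-3, 9.65, 9.72 and 9.52 in fri(Col)-flc-3 and 10.14, 9.86 and 9.37 in fri(Col)-FLC(Col). The 4 genotypes were spread over 0.60 on day 0 and over 0.20 on day 4. The order of the day 2 levels was also the order of the falls, from -0.88 in FRI(Sf-2)-FLC(Col) to -0.20 in fri(Col)-flc-3. A fall is day 4 minus day 2 and the day 4 levels lay close together, so these orders are not separate observations. AT4G19200 had day 4 levels of 8.72 to 9.01 and day 2 levels of 9.08 to 9.59, without overlap, and AT5G44720 had day 4 levels of 9.19 to 9.53 and day 2 levels of 9.58 to 9.79. Even falls were also found at dim levels. AT1G10140 had day 4 levels of 3.57 to 3.85 and day 2 levels of 4.07 to 4.43, with falls of -0.59 to -0.42, and AT2G18370 had day 4 levels of 3.39 to 3.45 and day 2 levels of 3.71 to 3.85, with falls of -0.40 to -0.32. AT4G38810 had day 4 levels of 6.11 to 6.43 and day 2 levels of 6.66 to 6.76, and in it only fri(Col)-FLC(Col) changed by more than 0.15 before day 2.

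In several members the fall was uneven over the genotypes. AT2G34700 measured 5.78, 5.80 and 5.67 on days 0, 2 and 4 in FRI(Sf-2)-FLC(Col), 5.54, 5.52 and 5.23 in FRI(Sf-2)-flc-3, 5.73, 5.54 and 4.64 in fri(Col)-flc-3 and 5.95, 5.82 and 4.65 in fri(Col)-FLC(Col). Its falls were -0.14 and -0.30 in the genotypes with the Sf-2 FRI allele, FRI(Sf-2)-FLC(Col) and FRI(Sf-2)-flc-3, against -0.90 and -1.16 in fri(Col)-flc-3 and fri(Col)-FLC(Col). AT2G39980 had its largest fall in FRI(Sf-2)-FLC(Col), at -1.31, and its smallest in fri(Col)-flc-3, at -0.14. Both followed a rise to day 2, of 0.49 in FRI(Sf-2)-FLC(Col) and 0.14 in fri(Col)-flc-3. In fri(Col)-flc-3 the level was 5.72 on day 0 and again 5.72 on day 4. The falls in FRI(Sf-2)-flc-3 and fri(Col)-FLC(Col) were close to each other, at -0.51 and -0.45. AT2G32150 had its largest fall, -0.81, in fri(Col)-flc-3, where like STZ it was higher on day 2 than on day 0, by 0.54. AT2G38640 measured 4.99, 5.0 and 4.29 on days 0, 2 and 4 in FRI(Sf-2)-FLC(Col), 5.08, 4.72 and 4.54 in FRI(Sf-2)-flc-3, 5.10, 4.77 and 4.59 in fri(Col)-flc-3 and 5.0, 5.09 and 4.31 in fri(Col)-FLC(Col). Like UBC29, it was already lower on day 2 in both deletion lines, and its later falls there were -0.18 in FRI(Sf-2)-flc-3 and -0.17 in fri(Col)-flc-3, against -0.71 in FRI(Sf-2)-FLC(Col) and -0.77 in fri(Col)-FLC(Col). AT2G18480 had falls of -0.15 and -0.10 in FRI(Sf-2)-flc-3 and fri(Col)-flc-3, against -0.52 and -0.49 in FRI(Sf-2)-FLC(Col) and fri(Col)-FLC(Col). For AT2G38640 and AT2G18480, as for UBC29, the FRI(Sf-2)-flc-3 falls use the day 2 array that stood apart in its controls. AT4G33550 was split before day 4: on day 2 it stood 0.25 and 0.47 above day 0 in FRI(Sf-2)-FLC(Col) and FRI(Sf-2)-flc-3 and 0.58 below it in fri(Col)-flc-3, whose day 4 level of 6.14 was the lowest. These cases were picked out after their values were seen, and differences between genotypes in the fall were not tested. With 1 array for each genotype and day, such differences cannot be separated from array noise. The choice of members also required a fall in each genotype.

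Over all members the largest fall was in FRI(Sf-2)-FLC(Col) for 7, in FRI(Sf-2)-flc-3 for 3, in fri(Col)-flc-3 for 9 and in fri(Col)-FLC(Col) for 11. Among the 609 tested probe sets that were lower on day 4 than on day 2 in every genotype, the shares were 23.5% for FRI(Sf-2)-FLC(Col), 26.8% for FRI(Sf-2)-flc-3, 25.3% for fri(Col)-flc-3 and 24.5% for fri(Col)-FLC(Col). The median fall over members was -0.435 in FRI(Sf-2)-FLC(Col), -0.405 in FRI(Sf-2)-flc-3, -0.46 in fri(Col)-flc-3 and -0.50 in fri(Col)-FLC(Col). Within a member the largest fall was 1.21 to 25.9 times the smallest, with a median of 3.50. The ratio was under 2 for 6 members, AT4G38080, AT2G18370, AT2G19970, AT1G10140, AT4G03420 and AT4G38810, and above 5 for 10.

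The level before day 4 was flat on average rather than in each genotype. Day 2 lay within 0.15 of day 0 in all 4 genotypes for 3 members, AT4G18340, AT1G30790 and LHB1B2. It did so in 3 genotypes for 8 members, in 2 for 7, in 1 for 9 and in 0 for 3, namely AT1G61610, UBC29 and the STZ probe set 18217_g_at. Of the 6185 probe sets tested, 7.66% lay within 0.15 in all 4 genotypes, and 3836 met the limit on the mean. That limit was part of the choice of members, so nothing is read from these counts. The largest day 2 change of any genotype had a median over members of 0.31 and was below 0.3 for 14 of the 30.

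**Figure D4:**
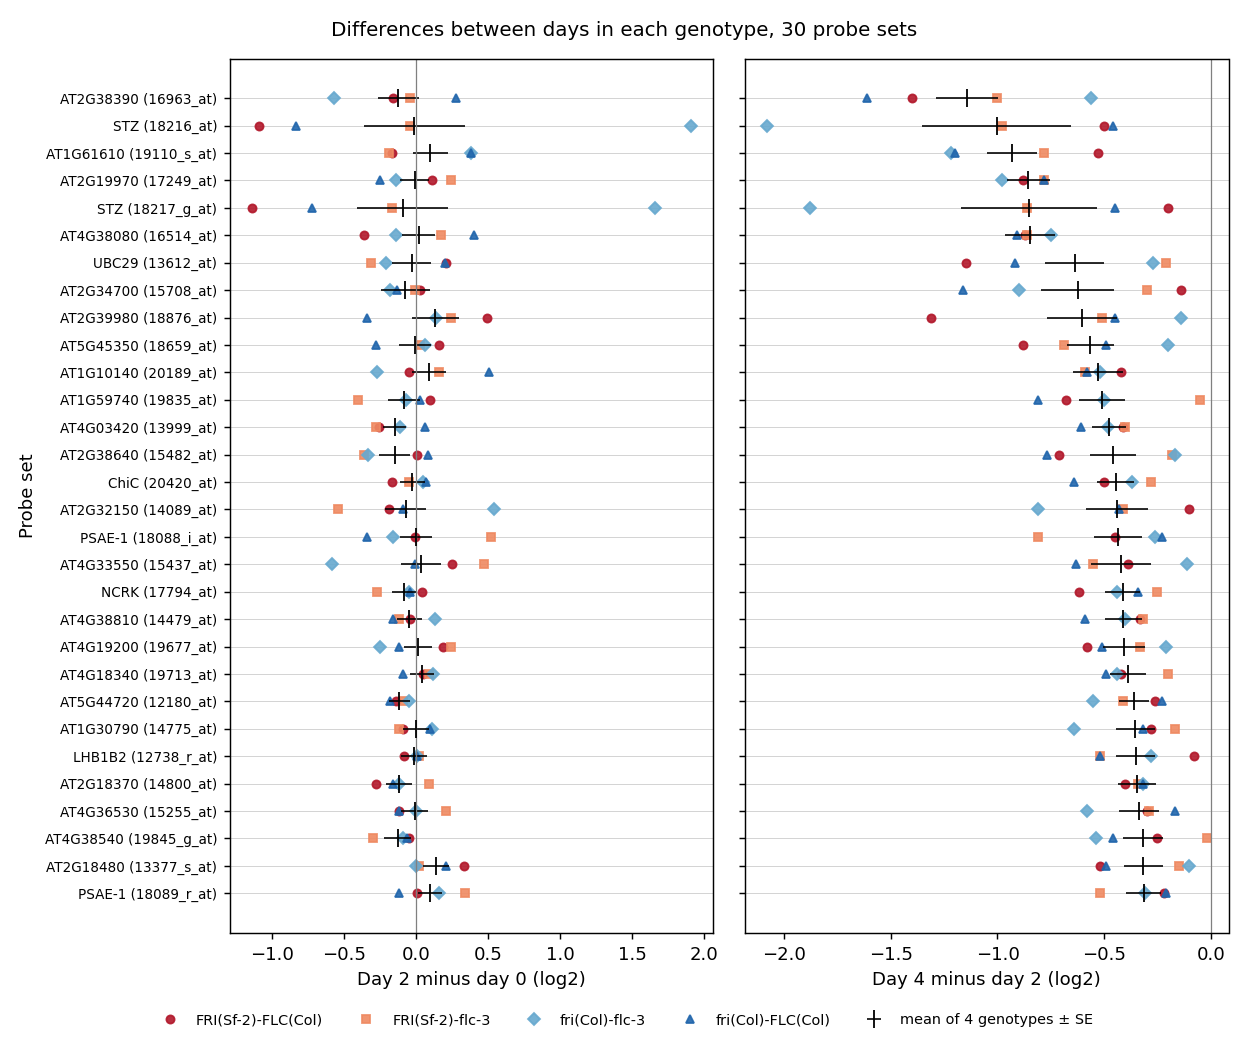
Day 2 minus day 0 (left) and day 4 minus day 2 (right), both log2, for the 30 members in order of fall; coloured symbols are the 4 genotypes and black marks the mean with its standard error from the additive fit. On the left the genotypes scatter to both sides of 0, most widely for STZ, from -1.14 to 1.91, and on the right every symbol is below 0.

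Close to the limits, the members with the smallest falls were PSAE-1 (18089_r_at) at -0.31, AT2G18480 at -0.32 and AT4G38540 at -0.32, while AT3G46690, AT4G24780 and AT3G46860 lay just outside at -0.2996, -0.296 and -0.293. The members nearest the day 2 limit were AT2G38640 and AT4G03420 at -0.15 and AT2G18480 at 0.14. AT4G24350 at -0.16, another probe set of AT4G38540 at -0.16 and AT4G14020 at 0.18 lay just outside it. AT4G24350 and AT4G14020 had falls of -0.97 and -0.84. Another 5 probe sets failed only because day 4 was not below day 2 in every genotype, among them YLS5 with a mean difference of -0.44.

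Other probe sets of member genes were measured on the same arrays and are not independent samples. The second probe set of AT1G61610, 16405_at, was too dim to be taken, with a mean of 3.45, and had a day 4 minus day 2 difference of -0.59, with falls in all 4 genotypes. That of AT4G38540, 19844_at, had even falls of 0.33 to 0.44 over the genotypes. The member probe set of AT4G38540, 19845_g_at, had the least even falls of all, from -0.54 in fri(Col)-flc-3 to -0.02 in FRI(Sf-2)-flc-3.

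Whether the members differed between genotypes in level was asked with means over the 3 days, which the choice of members did not use. In limma 0 of the 30 members passed in each of 5 genotype comparisons, also without the FRI(Sf-2)-flc-3 array of day 2. FRI(Sf-2)-FLC(Col) was first set against the mean of the other 3 genotypes, where 0 members passed and 0.760% of all probe sets did. At an unadjusted p under 0.05 there were 6 members, all higher in FRI(Sf-2)-FLC(Col), namely NCRK, AT1G59740, AT5G45350, AT5G44720, UBC29 and AT4G19200, where 10.7% of probe sets reached that p.

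NCRK averaged 4.94 ± 0.35 (SD over 3 days) in FRI(Sf-2)-FLC(Col), 4.66 ± 0.26 in FRI(Sf-2)-flc-3, 4.62 ± 0.27 in fri(Col)-flc-3 and 4.63 ± 0.21 in fri(Col)-FLC(Col). The fitted difference of FRI(Sf-2)-FLC(Col) from the others was 0.30 ± 0.0787 (SE; limma adjusted p = 0.123), and it was the highest genotype on each of the 3 days. AT1G59740 averaged 7.95 ± 0.37 in FRI(Sf-2)-FLC(Col), 7.60 ± 0.25 in FRI(Sf-2)-flc-3, 7.57 ± 0.31 in fri(Col)-flc-3 and 7.56 ± 0.46 in fri(Col)-FLC(Col), a difference of 0.37 ± 0.104 (limma adjusted p = 0.166). For both genes the other 3 genotypes were within 0.05 of each other. With array weights in the fit both passed, with a limma adjusted p of 0.0387 for NCRK and 0.0470 for AT1G59740.

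In FRI(Sf-2)-FLC(Col) 24 of the 30 members were higher than the mean of the other 3 genotypes and 6 were lower, with a median difference of 0.09, while 51.0% of all probe sets were higher and their median was 0.00320. Differences ran from -0.22 for STZ (18217_g_at) to 0.37 for AT1G59740. FRI(Sf-2)-FLC(Col) was above the mean of the others on all 3 days for 13 members, which held for 20.1% of probe sets, and was the highest of the 4 on all 3 days for 6, which held for 4.20%. These 6 were AT5G45350, AT1G59740, NCRK, AT4G19200, AT5G44720 and AT2G18370. Members share the same 12 arrays, so their common direction is 1 observation of these samples and not 30.

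**Figure D5:**
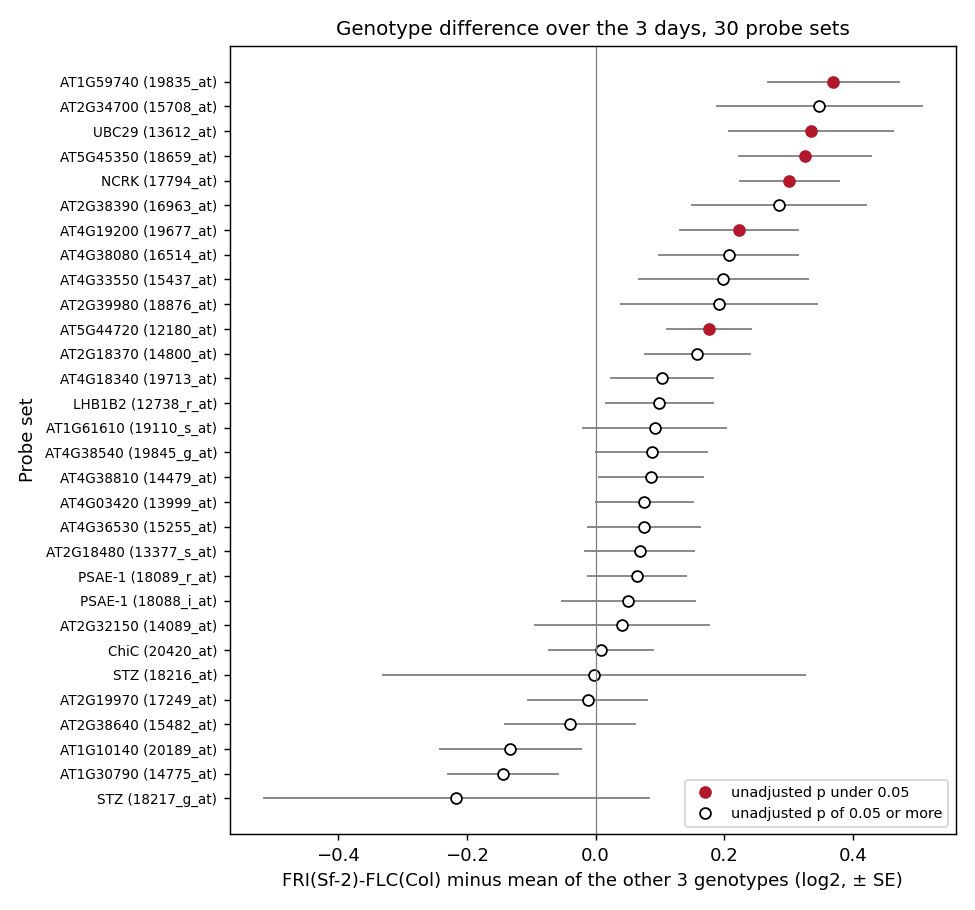
Fitted difference (log2) of FRI(Sf-2)-FLC(Col) from the mean of the other 3 genotypes over the 3 days for each member, with its standard error; filled points have an unadjusted p under 0.05. Most points lie to the right of 0, with AT1G59740 the furthest at 0.37, and no member passed after adjustment.

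The loss of FLC was measured in both FRI backgrounds, as intact FLC minus deletion, so a positive value means a lower level in the deletion line. With the Sf-2 FRI allele, 0 members passed in limma and 0.146% of all probe sets did, and 5 reached an unadjusted p under 0.05, as did 11.8% of probe sets. AT1G30790 was among them, with 3.98, 3.86 and 3.69 on days 0, 2 and 4 in FRI(Sf-2)-flc-3, against 3.67, 3.58 and 3.30 in FRI(Sf-2)-FLC(Col), a difference of -0.33 ± 0.107 (limma adjusted p = 0.247). The others, NCRK, AT1G59740, AT4G38080 and AT2G38390, had positive differences of 0.28, 0.35, 0.32 and 0.37. In all, 21 of 30 members were above 0, as were 53.2% of probe sets. With the Col-0 FRI allele, 0 members passed and 0.0162% of probe sets did, and 14 of 30 were above 0, as were 50.8%. AT4G18340 alone had an unadjusted p under 0.05, where 2.47% of probe sets did, at 0.29 ± 0.0984 (limma adjusted p = 0.9999).

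The Sf-2 FRI allele was likewise set against the Col-0 allele with and without FLC. With FLC intact, 0 members passed and 0.178% of probe sets did, and 4 reached an unadjusted p under 0.05, all higher with the Sf-2 allele; 6.87% of probe sets did. These were NCRK at 0.31 ± 0.0963, AT1G59740 at 0.38 ± 0.127, UBC29 at 0.36 ± 0.158 and AT5G44720 at 0.18 ± 0.082, with a lowest limma adjusted p of 0.44. In all, 24 of 30 members were above 0, as were 50.4% of probe sets; this comparison, that with the deletion line and that with the mean of the others all use the FRI(Sf-2)-FLC(Col) arrays.

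Without FLC, 0 members passed for the FRI allele and 0.0808% of probe sets did. An unadjusted p under 0.05 was reached by 5 members and by 8.99% of probe sets, and 17 of 30 were above 0, as were 45.4%. AT4G18340 measured 5.13, 5.22 and 5.02 in FRI(Sf-2)-flc-3, against 4.80, 4.92 and 4.48 in fri(Col)-flc-3, a difference of 0.39 ± 0.0984 (limma adjusted p = 0.343), higher on each of the 3 days. AT4G33550 and AT2G19970 were also above 0, at 0.48 and 0.32, and AT2G39980 and ChiC below it, at -0.47 and -0.22. NCRK and AT1G59740 differed by 0.04 and 0.03 in this comparison.

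Of the 28 member genes, 5 lie on chromosome 1, 11 on chromosome 2, 0 on chromosome 3, 10 on chromosome 4 and 2 on chromosome 5. Of the 2594 genes tested with a single name, 561 lie on chromosome 1, 956 on chromosome 2 and 824 on chromosome 4. Chromosome 3 holds only 137 of them (5.28%) and chromosome 5 only 115 (4.43%). No 2 member genes are neighbours in the RefSeq gene order of assembly TAIR10.1; the closest, AT2G18370 and AT2G18480, have 11 genes between them. The same limits applied to all probe sets without regard to gene name gave 80 that were lower on day 4 only, of which 47 have no single gene, and the mirrored limits gave 88 that were higher.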

How the data were processed

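From 12 one-colour arrays of shoot apex RNA the authors deposited a log2 level for each of 8297 probe sets, a unit read from the range of the values (2.12 to 13.2). The sources used here do not give their software or normalization. Genes came from GEO's platform annotation and RefSeq assembly TAIR10.1 names. The members, gene lists and tests were chosen with earlier results of these data known. The model, run in limma 3.58.1 under R 4.3.3 with a trended eBayes step, was additive in genotype and day, on the 6185 probe sets with a mean above the 25th percentile (3.56), two-sided, with Benjamini-Hochberg adjustment over all of them and a threshold of 0.05. The fit leaves 6 residual degrees of freedom, so each SE mixes array noise with genotype differences in the day response; the number of arrays limits the precision. The fit was also run on simulated independent noise without day differences. The genotype differences put into it were larger than any found among the members. That run therefore does not show how the fit performs at their size. Named genes were the 20 largest falls, members with calls, list members, members with another probe set, the extremes of FRI(Sf-2)-FLC(Col) against the others, and those at the limits; AT4G19200, AT4G18340, AT5G44720, AT1G30790 and AT2G18370 were named after their values were seen. Of 21 gene lists, 2 (light reactions, protein turnover) held members. The lists are of gene symbols, so members with only a locus name could not be found in them, and 3 lists had no named probe set. Promoter and protein sequences are not analysed here. Alternatives were quantile normalization, median centring, other filters and limits, other variance models, array weights and leaving out each array or genotype.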

Additional observations from a re-analysis of the deposited data

How the results depend on the processing

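In limma the count of members that passed was 0 for all 5 genotype comparisons under each of 20 alternative settings, with 1 exception: array weights gave 2, NCRK and AT1G59740, for FRI(Sf-2)-FLC(Col) against the mean of the other 3 genotypes. Leaving out each array in turn gave 0 throughout. The rule found 30 members, 31 with quantile normalization and 32 with median centring, of which 27 and 29 were among the 30. It found 14 with the filter at the 50th percentile, all among the 30, with a median fall of -0.54 against -0.44; the other 16 members lie below that level. A fall limit of 0.2 gave a median of -0.39 and one of 0.4 a median of -0.53, as the limits dictate. Leaving out each genotype gave 30 to 38 probe sets with a median fall of -0.48 to -0.40, and 19 (without fri(Col)-flc-3) to 24 (without FRI(Sf-2)-FLC(Col)) of the 30 were among them. In all 13 settings 8 members were found: AT2G19970, AT4G38080, UBC29, AT2G34700, AT5G45350, AT1G59740, AT4G38810 and AT4G19200. AT2G18480 was found in 4 and AT4G38540 in 6. The labels give no replicate numbers to block on, and the fit already takes genotype differences within days. Of the 30 members, 12 have a mean level under 5, and signal over background is not known for these values.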
